A study of Mus musculus with 6 samples.

Results

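The genes described here are 38 genes for the degrading contents of the lysosome and its shell: cathepsins and other lysosomal proteases, the enzymes that take glycans and lipids apart, proteins of the lysosomal membrane, progranulin, and the transcription factors *Tfeb* and *Tfe3*. They were taken by symbol from the 19309 genes of the deposited count table, and each symbol matched 1 gene. The libraries came from M2c macrophages, grown from mouse bone marrow, of 3 sEH-/- and 3 wild-type mice, with 1 library per mouse. sEH is the soluble epoxide hydrolase, the product of *Ephx2*, which turns fatty acid epoxides into diols. The sEH-/- mice came from crossing animals with the Ephx2tm1.1Arte allele to a ROSA26 Cre deleter, so the gene was lost in the whole animal and not in macrophages alone, and strain-matched littermates are given as controls. The strain of these 6 mice and their sex are not given in the labels. By the methods, most of the study's experiments used cells from females, and bone marrow came from mice aged 8 to 10 weeks. The paper also states, ahead of its RNA sequencing results, that the work following its comparison of the sexes used female mice. The methods list C57BL/6N mice, without naming the strain of these 6. All 6 cultures had M-CSF and GM-CSF at 15 ng/mL each for 7 days, then LPS at 10 ng/mL and IFN-γ at 1 ng/mL to give M1 cells, and then TGF-β1 at 10 ng/mL to give M2c cells. The 2 sources differ on the times: by the sample labels the M1 step took 24 h and TGF-β1 48 h, while the methods have 12 h for the former and 24 h or 48 h for the latter. The comparison asked whether the loss of sEH changes the transcripts of this degradative machinery in M2c macrophages.

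Lysosomes are acidic organelles in which macrophages digest what they engulf as well as worn-out parts of their own cytoplasm. Cathepsins, most of them cysteine proteases, cut proteins there, while glycosidases, sulfatases and lipases each remove one kind of bond, so that the lack of a single enzyme leads to a storage disease. TFEB and TFE3 are related transcription factors that move into the nucleus when nutrients are short or lysosomes are damaged, and they switch on many lysosomal genes through a DNA element whose core is the palindrome CACGTG.

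The element was looked for in the RefSeq promoters of these genes (GRCm38.p6, 250 bases before to 50 bases after each start). The table held 42 promoters of 35 of the 38 genes, and *Asah1*, *Ctsb* and *Ctsh* had none in it. CACGTG, which reads the same on both strands, was present for 13 of the 35 genes (37.1%), against 8.09% of all 27025 genes in the same table. The 13 genes were *Ctsd*, *Ctsa*, *Ctsf*, *Ctsl*, *Lgmn*, *Gaa*, *Gla*, *Glb1*, *Naglu*, *Sgsh*, *Lamp1*, *Cln3* and *Mcoln1*. The longer palindrome TCACGTGA, which contains CACGTG, was present for 5 of the 35 genes (14.3%), against 1.12% of all genes in the table. Those 5 promoters are shown because they carry the longer of the 2 palindromes, in capitals, 5′ to 3′ on the strand of the gene. The first is *Ctsd*, the aspartic protease cathepsin D (chr7:142387908-142387937, minus strand), then *Ctsa*, the carboxypeptidase cathepsin A (chr2:164833743-164833772, plus strand), which has the palindrome a second time just after its start, not shown, *Gla*, α-galactosidase A, which also has it at 2 places (chrX:134601215-134601244 and chrX:134601182-134601211, minus strand), *Cln3*, a membrane protein lost in juvenile Batten disease (chr7:126583340-126583369, minus strand), and *Mcoln1*, the lysosomal calcium channel (chr8:3500462-3500491, plus strand).
Ctsd: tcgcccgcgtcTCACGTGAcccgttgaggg
Ctsa: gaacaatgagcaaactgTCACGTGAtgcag
Gla, first: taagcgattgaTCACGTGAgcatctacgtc
Gla, second: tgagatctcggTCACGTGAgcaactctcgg
Cln3: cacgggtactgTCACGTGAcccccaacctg
Mcoln1: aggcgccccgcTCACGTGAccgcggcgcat

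The promoter of *Lamp1*, which encodes the most familiar protein of the lysosomal membrane, held the core 4 times within the last 70 bases before its start (chr8:13159091-13159160, plus strand), more often than any other of the 42 promoters. *Gaa*, acid α-glucosidase, which breaks down glycogen, had the core once (chr11:119267811-119267840, plus strand).
Lamp1: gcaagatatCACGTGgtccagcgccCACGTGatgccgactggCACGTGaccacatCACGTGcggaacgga
Gaa: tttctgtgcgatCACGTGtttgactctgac

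A match describes the letters only and shows no binding. The 13 genes with CACGTG had a median log2 fold change between the genotypes of 0.09, from −0.13 to 0.41, and the 22 genes with a promoter and no match a median of 0.09, from −0.33 to 0.45. *Smpd1*, the lowest of the 38 genes, was among those without a match, and the difference between these 2 sets of genes was not tested.

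Library totals lay between 4400197 and 6096440 counts, a 1.39-fold span, with 4400197 to 5818444 counts in the sEH-/- and 4632688 to 6096440 in the wild-type libraries. *Ephx2* stood at 0.439 ± 0.228 CPM (SD, n = 3) in the sEH-/- and 7.95 ± 2.25 CPM (n = 3) in the wild-type libraries as a check of the genotype labels. CPM is a gene's counts scaled to the same library size in all libraries, after TMM normalization. Of 8 macrophage markers, all were tested and 1, *Cd14*, passed the adjusted p threshold (higher in sEH-/-), with summed levels of 2047 to 2506 CPM in the sEH-/- and 1785 to 2256 CPM in the wild-type libraries. Lymphocyte, erythroid and mast cell markers summed to at most 1.97 CPM in any library. The neutrophil list (7 of 10 genes in the table, 1 tested, none called) summed to 28.3 to 32.0 CPM in the sEH-/- and 17.6 to 21.1 CPM in the wild-type libraries, without overlap, most of it from *S100a8*, while no other gene of the list passed 2 CPM in a library. Stromal markers summed to 11.3 to 20.8 CPM in the sEH-/- and 7.02 to 63.0 CPM in the wild-type libraries, and dendritic cell markers to 27.5 to 58.3 and 42.1 to 59.3 CPM, with no gene of either list called. Of 7 osteoclast markers, which bear on cathepsin K, 5 were tested. *Mmp9* and *Dcstamp* were called higher and *Itgb3* lower in sEH-/-, where 2.61% of all tested genes were called in either direction. The list summed to 234 to 311 CPM in the sEH-/- and 243 to 336 CPM in the wild-type libraries. The part of these cell type markers in the values below was not tested. In such bulk libraries, fewer cells of a type and less RNA per cell cannot be told apart.

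Transcripts of the lysosome were abundant in these macrophages. The authors removed duplicate reads before counting, and in the deposited table no gene had more than 1 count per base of its exons in any library. The count of a gene per exonic base, a level per length used here to compare genes, thus ran from 0 towards 1. It depends on the exons that are annotated, whether or not these cells use them. The 38 genes had a median of 0.298 counts per exonic base, and 4.33% of all tested genes lay above that value, the median of all tested genes being 0.0567. Among the 100 tested genes with the most counts per exonic base, 8 were of these 38.

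*Ctss* (ENSMUSG00000038642, chr3:95526786-95556403 in mm10), which encodes cathepsin S, the protease that trims the invariant chain for antigen presentation, had the most counts per exonic base of all tested genes, at a mean of 0.972 and up to 0.989 in 1 library. Its exons cover 1358 bases, and its counts were 1307, 1323 and 1303 in sEH-/- libraries 1 to 3 and 1310, 1343 and 1332 in wild-type libraries 1 to 3. The largest of these 6 counts was 1.03 times the smallest, although the library totals differed by 1.39-fold. *Psap*, prosaposin, whose pieces help the lipid-degrading enzymes reach their substrates, came next, at 0.893 counts per exonic base. Its counts were 2482, 2447 and 2409 in the sEH-/- and 2414, 2505 and 2448 in the wild-type libraries. *Ctsz*, cathepsin Z, a carboxypeptidase, followed at 0.853 counts per exonic base, with 1249, 1229 and 1191 counts in the sEH-/- and 1206, 1252 and 1249 in the wild-type libraries. For these 3 genes the genotypes overlapped, and in each genotype the largest library gave hardly more counts than the smallest.

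The next genes in this order were *Lamp1*, at 0.678 counts per exonic base, *Hexa*, a subunit of β-hexosaminidase, at 0.676, *Lgmn*, the asparaginyl protease legumain, at 0.590, and *Ctsb*, cathepsin B, at 0.589. *Lamp1* gave 1863, 1800 and 1754 counts in the sEH-/- and 1747, 1885 and 1840 in the wild-type libraries. *Hexa* gave 1356, 1353 and 1281 counts in the sEH-/- and 1296, 1429 and 1383 in the wild-type libraries. Within each pair of neighbours, *Lamp1* with *Hexa* and *Lgmn* with *Ctsb*, the difference in level was smaller than the spread over the libraries. *Lgmn* had 1340, 1394 and 1317 counts in the sEH-/- and 1310, 1454 and 1403 in the wild-type libraries. *Ctsb*, the gene of the group with the most counts in all, had 3608, 3636 and 3372 counts in the sEH-/- and 3434, 3712 and 3613 in the wild-type libraries. It lies on chromosome 14 (63122462 to 63145923), 2.94 Mb from *Ephx2*. At the other end of the order stood *Ctsf*, cathepsin F, at 0.0560 counts per exonic base, and *Tfeb* at 0.0513. Below *Ctss*, *Psap* and *Ctsz* the order depended on the length used. Per base of the principal transcript, the main annotated form of the mRNA, *Ctsc* had 0.831 counts and *Lamp1* 0.814. *Grn* had 0.742 and *Ctsh* 0.740, above *Lgmn* at 0.688 and *Hexa* at 0.676. The lowest was then *Ids* at 0.0949, with *Tfeb* at 0.127.

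**Figure D1:**
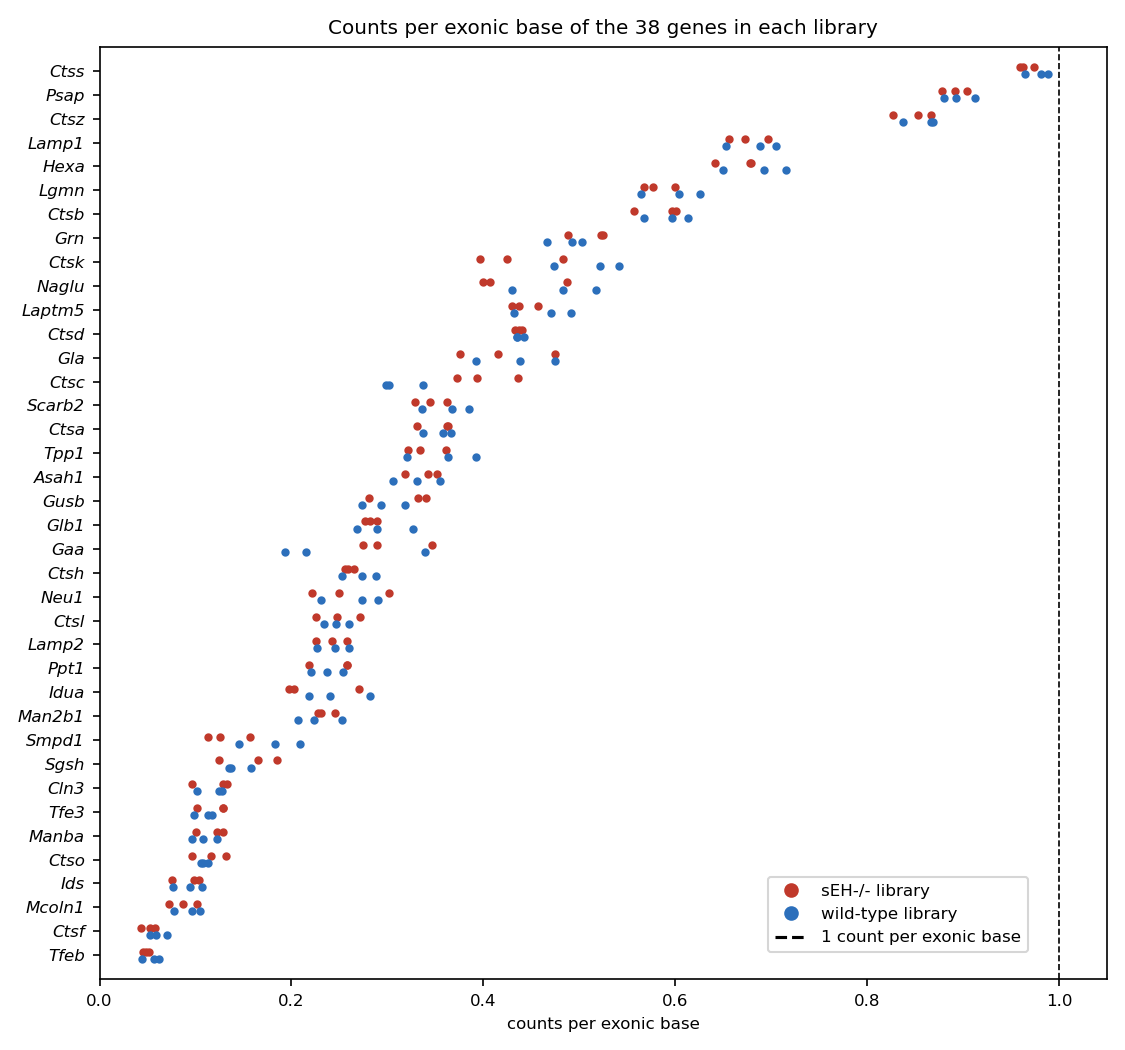
Counts per exonic base (x axis) of the 38 genes in each library, ordered by their mean. Red points are the 3 sEH-/- and blue points the 3 wild-type libraries, and the dashed line marks 1 count per exonic base, which *Ctss* approaches at a mean of 0.972 while *Tfeb* has 0.0513.

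The range of a gene's counts across libraries narrowed as its counts per exonic base rose. In 9 tested genes with more than 0.75 counts per exonic base, 3 of them in this group, the largest count was a median of 1.07 times the smallest, compared with a median of 1.60 in the 3060 genes with 0.05 to 0.1. The part of sampling noise, which is larger at low counts, in this contrast was not tested. For 29 of the 38 genes, the range of counts was smaller than the range of library totals, which was true of 17.5% of all tested genes. The smallest range belonged to *Ctsd*, with 1035, 1028 and 1017 counts in the sEH-/- and 1024, 1040 and 1024 in the wild-type libraries, the largest being 1.02 times the smallest. *Ctsd* reached only 0.437 counts per exonic base, but 808 of its 2351 exonic bases are shared with the predicted gene *Gm49369* on the same strand, and reads over several genes were not counted, so that it had 0.666 counts per unshared base. *Ctsl* shares 395 exonic bases with *Gm49230* and *Glb1* shares 165 with *Tmppe*, and the other 35 genes share none.

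**Figure D2:**
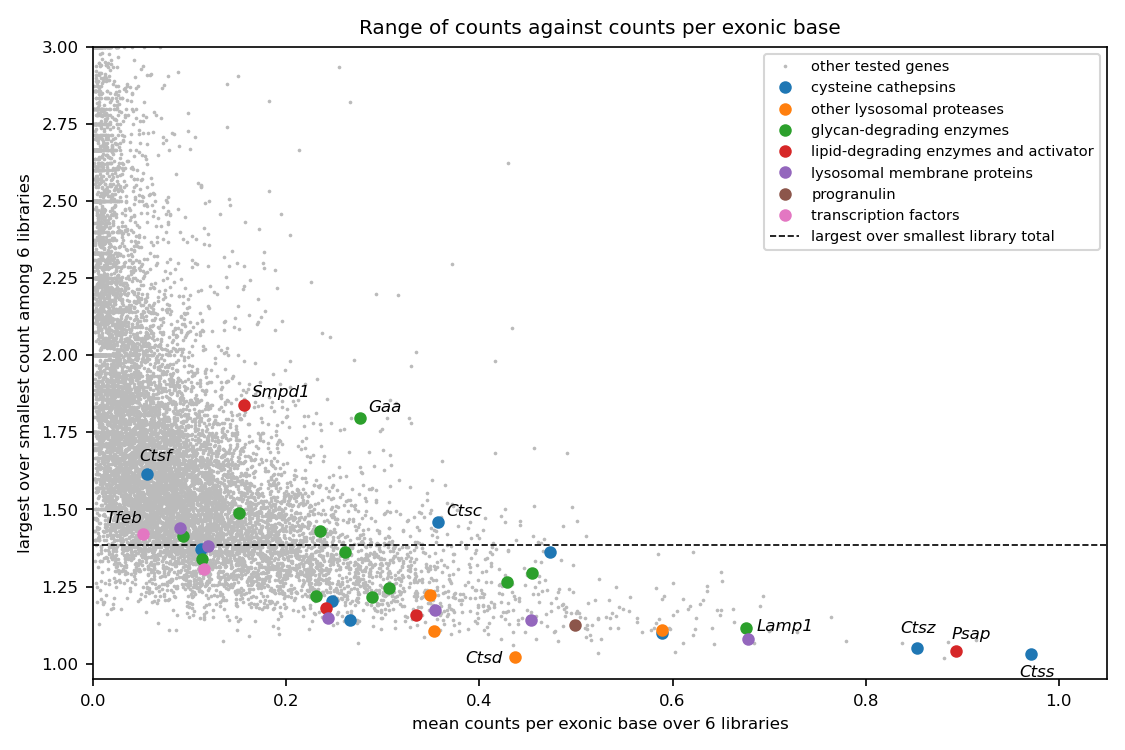
Largest over smallest count among the 6 libraries (y axis) against mean counts per exonic base (x axis) for the 38 genes, coloured by class, and all other tested genes in grey, of which those above 3 on the y axis are not drawn. The dashed line is the 1.39-fold range of the library totals, and the 7 of the 38 genes with more than 0.5 counts per exonic base lie below it, down to 1.03 for *Ctss*.

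Such a ceiling bears on the comparison of the genotypes in 2 measurable ways. First, a gene with the same count in all 6 libraries receives a log2 fold change of 0.11 (1.08-fold) towards sEH-/- from the library totals alone, since the sEH-/- libraries were smaller on average after normalization. Second, under the formula by which the counts were corrected, a doubling of the fragments of a gene would raise its count by 1.03-fold for *Ctss*, 1.11-fold for *Psap* and 1.15-fold for *Ctsz*, but by 1.41-fold for *Ctsb* and 1.84-fold for *Smpd1*. The formula assumes that reads start evenly over the exons, and that duplicates were defined by 1 read position, as with single-end reads. Neither was tested, and the sources used here do not give the read layout. With paired-end duplicate removal the limit of 1 count per base would not hold, and the corrected values and these folds would not apply. For *Ctss*, such a step is no larger than the 1.03-fold range of its counts over the 6 libraries, so that a doubling was not detectable for this gene. After the correction its counts spanned 1.41-fold, beside the 1.39-fold span of the library totals. These like spans do not show that the corrected counts followed the totals, since the correction keeps the order of the counts. The count of *Ctss* was 1307 in sEH-/- library 1, with a total of 5818444. It was 1310 in wild-type library 1, with a total of 4632688. Corrected counts still spanned only 1.17-fold for *Ctsb*, 1.16-fold for *Psap* and *Ctsz*, 1.15-fold for *Lamp1* and 1.03-fold for *Ctsd*. For these genes the correction thus left the counts flatter than the totals, and the reason was not tested.

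All 38 genes passed the filter on low counts, a mean of more than 5, and were tested with edgeR among 13785 genes. None was called, that is, none had both an adjusted p below 0.05 and a difference of more than 1.5-fold in either direction, where 2.61% of all tested genes were called. That share was 0.755% among the 927 tested genes with at least 0.25 counts per exonic base, where 23 of the 38 genes lay. At an unadjusted p below 0.05 edgeR gave 6 of the 38 genes, where 23.4% of all tested genes had such a p, and DESeq2 and limma-voom also called none. At an adjusted p below 0.05 and any fold change, 1 of the 38 genes passed, *Smpd1*, where 4.01% of all tested genes did. The log2 fold change was above 0 for 32 genes and below 0 for 6, while 49.8% of all tested genes lay above 0. The median over the 38 genes was 0.09, against −0.00085 over all tested genes, and below the 0.11 of a gene with constant counts. At 0.25 or more counts per exonic base the median was 0.07 over all tested genes and 0.09 over the 23 genes of this group. Below 0.25 it was −0.0099 over all tested genes and 0.11 over the other 15 of the 38. For 29 of the 31 genes with less than 0.5 counts per exonic base, the 95% interval of the fold change in counts stayed within 1.5-fold in either direction, the exceptions being *Ctsc* and *Gaa*. For the 7 genes with more, even doubled fragments would by the formula raise the count by less than 1.5-fold, so that their intervals bound nothing of the kind. The same holds for *Ctsd*, counted among the 29, if the formula is applied to its 0.666 counts per unshared base. It also holds for *Grn*, *Ctsh*, *Laptm5*, *Lamp2*, *Gusb* and *Tpp1* of the 29 if the length of the principal transcript is used. Per base of that transcript they had between 0.506 (*Tpp1*) and 0.742 (*Grn*) counts.

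The part of the 38 genes in all counts moved with the size of the library. It was 0.893%, 0.994% and 1.04% in sEH-/- libraries 1 to 3 and 0.991%, 0.861% and 0.902% in wild-type libraries 1 to 3, the lowest values being those of the 2 largest libraries, wild-type 2 and sEH-/- 1, and the highest that of the smallest, sEH-/- 3. The genotypes overlapped, at 0.977% ± 0.0770 (SD, n = 3) and 0.918% ± 0.0662 (n = 3). With the log2 library total in the model, the median log2 fold change of the 38 genes was 0.02, with 24 above and 14 below 0. With counts corrected for the ceiling it was 0.09, with 31 above 0, and 1 gene passed the adjusted p threshold, again *Smpd1*.

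**Figure D3:**
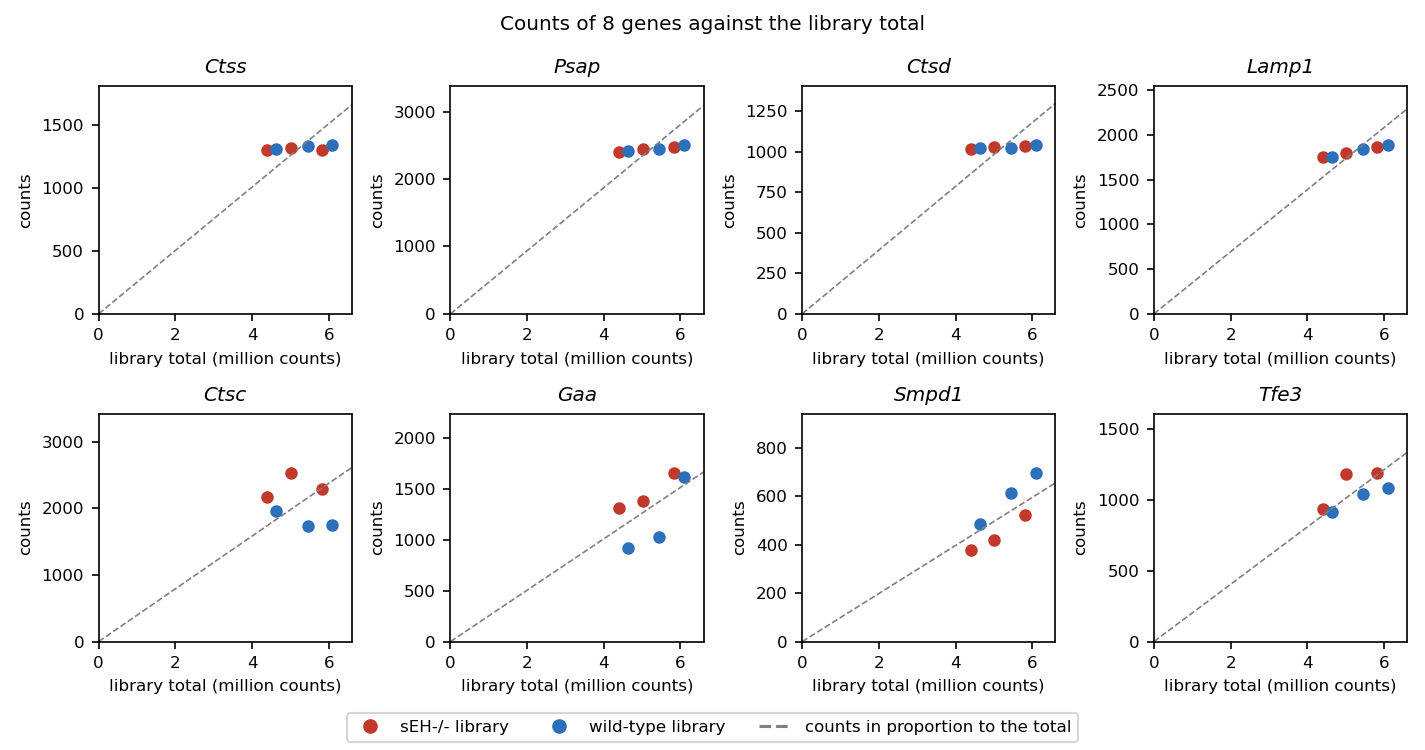
Counts of 8 genes (y axis, from 0) against the library total (x axis), with the 3 sEH-/- libraries in red and the 3 wild-type libraries in blue. The dashed line gives counts in proportion to the total, and *Ctss*, *Psap*, *Ctsd* and *Lamp1* stay level across it, while *Smpd1* follows it with all 3 sEH-/- libraries below and all 3 wild-type libraries above.

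*Smpd1* (ENSMUSG00000037049, chr7:105554360-105558389 in mm10) encodes acid sphingomyelinase, which splits sphingomyelin into ceramide and phosphocholine. It was lower in sEH-/-, with 524, 420 and 379 counts in the sEH-/- and 485, 697 and 612 in the wild-type ones. This came to 87.3 ± 2.48 CPM (SD, n = 3) and 110 ± 3.24 CPM (n = 3). The CPM of the genotypes did not overlap. The log2 fold change was −0.33 ± 0.0673 (SE), with an adjusted p of 0.0308 by edgeR. The adjusted p lay between 0.0272 and 0.163 over 16 alternative analyses and was below 0.05 in 11 of them. The exceptions were DESeq2 (0.0507), the replicate block, and the fits without sEH-/- library 2, without wild-type library 2 and without wild-type library 3. *Smpd1* stood far from the ceiling, at 0.156 counts per exonic base, and its log2 fold change was −0.36 with corrected counts. Of the other lipid-degrading genes, *Asah1*, the acid ceramidase that acts on the ceramide made by *Smpd1*, had a log2 fold change of 0.14 ± 0.0939 (SE), *Ppt1*, palmitoyl-protein thioesterase, 0.15 ± 0.0885 and *Psap* 0.10 ± 0.126, with adjusted p between 0.343 and 0.676 by edgeR.

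The 9 cysteine cathepsins had a median log2 fold change of 0.09, with 7 above and 2 below 0. The highest was that of *Ctsc* (ENSMUSG00000030560, chr7:88278085-88310888 in mm10), cathepsin C, which activates the serine proteases of granulocytes and lymphocytes. The sum of the neutrophil list, higher in all 3 sEH-/- libraries but mostly from the single gene *S100a8*, is given above. Its part in the value of *Ctsc* was not tested. *Ctsc* had 2282, 2532 and 2166 counts in the sEH-/- and 1959, 1753 and 1735 in the wild-type libraries, so that every sEH-/- count was above every wild-type count. Scaled to the library totals the genotypes overlapped, at 467 ± 67.1 CPM (SD, n = 3) and 341 ± 77.7 CPM (n = 3), since the smallest wild-type library had more CPM than the largest sEH-/- library. The log2 fold change was 0.45 ± 0.156 (SE), with an adjusted p of 0.114 by edgeR and 0.0158 by DESeq2. *Ctsc* was called in 2 alternatives, without wild-type library 1 (0.65) and with counts corrected to the length of the principal transcript (1.30). That correction, chosen after seeing the data, rests on a transcript of 2493 bases, fewer than the 2532 counts of sEH-/- library 2, which had to be capped. With exonic lengths the corrected value was 0.55, with an adjusted p of 0.0865.

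*Ctsk*, the collagen-cutting cathepsin K known from osteoclasts, and *Ctsf* lay at the lower end. *Ctsk* had 731, 642 and 600 counts in the sEH-/- and 716, 818 and 788 in the wild-type ones, a log2 fold change of −0.13 ± 0.0807 (SE) with an adjusted p of 0.368 by edgeR. *Ctsf* had 292, 266 and 219 counts in the sEH-/- and 264, 354 and 298 in the wild-type libraries, again −0.13 on the log2 scale, with an adjusted p of 0.389 by edgeR. In both genes the genotypes overlapped. The remaining cathepsins of this class, *Ctsb*, *Ctsh*, *Ctsl*, *Ctso*, *Ctss* and *Ctsz*, had log2 fold changes between 0.05 (*Ctsh*) and 0.17 (*Ctso*), with adjusted p from 0.29 to 0.827 by edgeR. For *Ctss* the sign depended on the treatment of the ceiling, with 0.09 ± 0.126 (SE) for the counts as deposited and −0.08 ± 0.123 with corrected counts.

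Among the other lysosomal proteases, all 4 values lay between 0.03 and 0.10 on the log2 scale. *Tpp1*, the tripeptidyl peptidase lost in a childhood form of neuronal ceroid lipofuscinosis, had 1864, 1723 and 1662 counts in the sEH-/- and 1656, 2027 and 1877 in the wild-type libraries, a log2 fold change of 0.03 ± 0.0898 (SE). *Ctsd* and *Ctsa* had 0.10 each and *Lgmn* 0.07, and the adjusted p by edgeR was between 0.621 and 0.876 for the 4 genes. *Ctsd*, with its level counts, sat close to the 0.11 that constant counts give.

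The 12 glycan-degrading enzymes had 10 values above and 2 below 0, with a median log2 fold change of 0.09. *Gaa* (ENSMUSG00000025579, chr11:119267887-119285454 in mm10) had 1657, 1382 and 1314 counts in the sEH-/- and 923, 1620 and 1028 in the wild-type libraries. In CPM the genotypes did not overlap, at 288 ± 13.7 (SD, n = 3) and 216 ± 41.0 (n = 3), the wild-type spread coming mostly from wild-type library 2. The log2 fold change was 0.41 ± 0.119 (SE), with an adjusted p of 0.0725 by edgeR and 0.0112 by DESeq2, and without a call in any alternative. *Sgsh*, N-sulfoglucosamine sulfohydrolase, which acts on heparan sulfate, had 818, 730 and 550 counts in the sEH-/- and 597, 698 and 604 in the wild-type libraries. Its log2 fold change was 0.24 ± 0.0883 (SE) and its adjusted p 0.138 by edgeR, with overlap between the genotypes. *Man2b1*, lysosomal α-mannosidase and the gene with the most counts of this class, had 1849, 1966 and 1827 counts in the sEH-/- and 1663, 2027 and 1790 in the wild-type libraries, or 0.16 on the log2 scale, with an adjusted p of 0.423 by edgeR.

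The other enzymes of this class were given by their range. *Gusb* (β-glucuronidase) and *Manba* (β-mannosidase) had log2 fold changes of 0.21 each, with adjusted p of 0.203 and 0.271 by edgeR. *Ids* (iduronate 2-sulfatase), *Hexa*, *Neu1* (sialidase), *Gla* and *Glb1* (β-galactosidase) lay between 0.06 and 0.11, and *Naglu* and *Idua*, both enzymes of heparan sulfate breakdown, at −0.04 each. The CPM of the genotypes did not overlap for *Gaa* and *Ids* in this class and *Tfe3* among the factors, all higher in sEH-/-, and for *Smpd1*, lower in sEH-/-. These 3 and 1 of 38 genes compare with 11.8% of all tested genes without overlap and higher in sEH-/- and 14.5% without overlap and lower.

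The 6 lysosomal membrane proteins lay between 0.01 (*Mcoln1*) and 0.12 (*Cln3*) on the log2 scale, with adjusted p from 0.409 to 0.939 by edgeR. *Lamp2*, which is needed for chaperone-mediated autophagy in one of its forms, had 2464, 2312 and 2157 counts in the sEH-/- and 2163, 2479 and 2348 in the wild-type libraries, or 0.10 on the log2 scale. The value of *Mcoln1* had the smallest standard error of the 38 genes, 0.0621, with 130 ± 2.69 CPM (SD, n = 3) in the sEH-/- and 129 ± 1.08 CPM (n = 3) in the wild-type libraries. By contrast, *Lamp1* had 362 ± 43.9 CPM (n = 3) and 339 ± 40.0 CPM (n = 3), a wider spread in CPM from counts that hardly varied. The 7 genes with at least 0.5 counts per exonic base all had log2 fold changes between 0.07 and 0.10, with standard errors from 0.107 to 0.126. With the library total in the model their values lay between −0.0087 and 0.02, with standard errors from 0.0485 to 0.0552.

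*Grn*, which encodes progranulin, a secreted precursor that is cut into granulins in the lysosome, had 1814, 1822 and 1697 counts in the sEH-/- and 1619, 1747 and 1712 in the wild-type libraries. The log2 fold change was 0.18 ± 0.111 (SE), with an adjusted p of 0.37 by edgeR. The genotypes overlapped in counts as well as in CPM.

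The 2 transcription factors differed in level per length, with 0.0513 counts per exonic base for *Tfeb*, the lowest of the 38 genes, and 0.114 for *Tfe3*. *Tfeb* had 277, 291 and 255 counts in the sEH-/- and 249, 354 and 319 in the wild-type ones, with a log2 fold change of −0.04 ± 0.10 (SE) and an adjusted p of 0.847 by edgeR. *Tfe3* had 1192, 1187 and 938 counts in the sEH-/- and 912, 1082 and 1044 in the wild-type libraries, or 220 ± 17.9 CPM (SD, n = 3) and 187 ± 12.4 CPM (n = 3). The CPM of *Tfe3* did not overlap between the genotypes, but the log2 fold change of 0.23 ± 0.0833 (SE) had an adjusted p of 0.128 by edgeR, and of 0.0690 to 0.442 over the alternatives. The test of these transcripts does not bear on where the 2 proteins were in the cell.

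**Figure D4:**
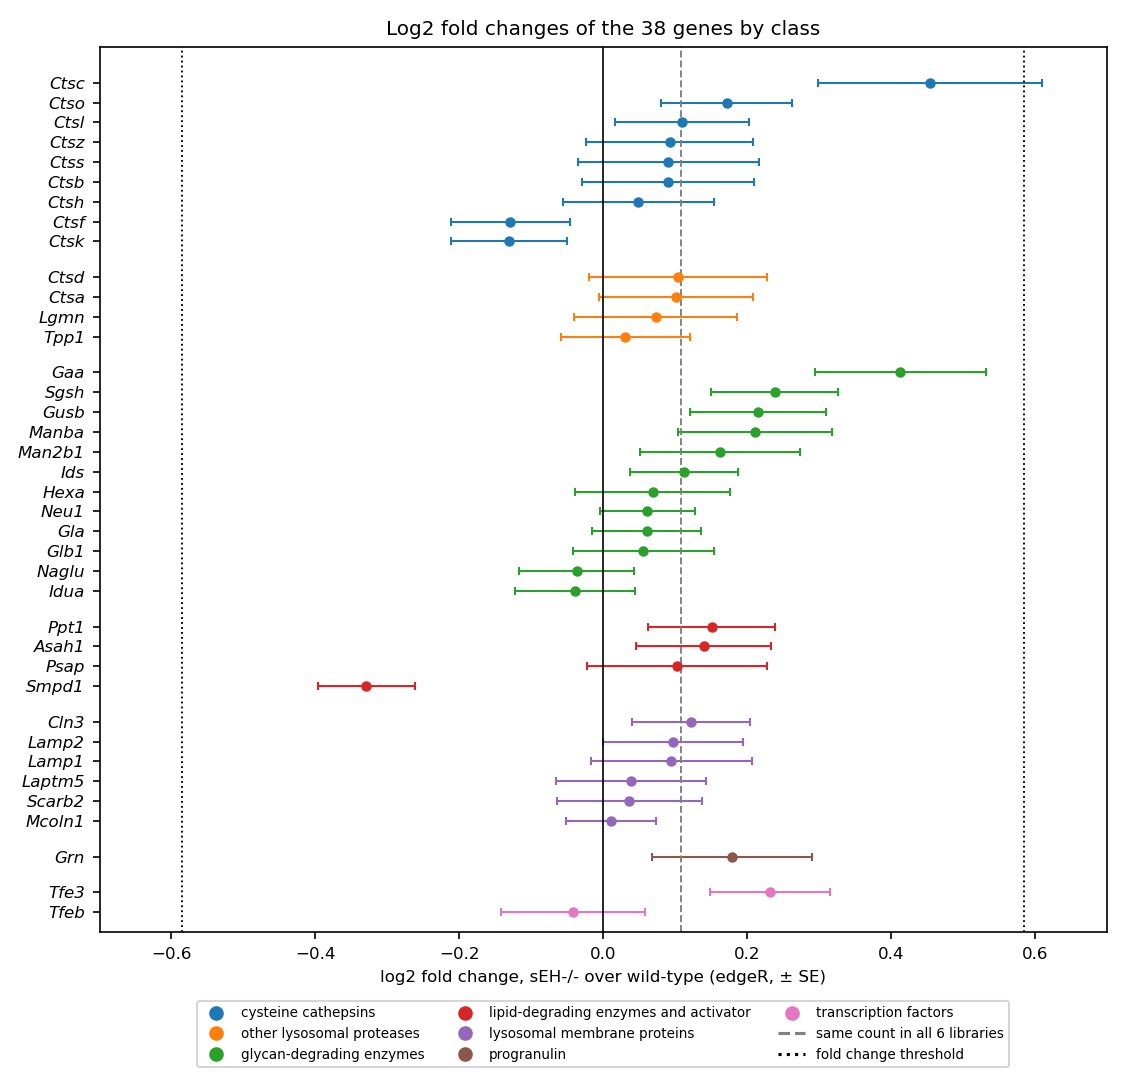
Log2 fold changes of the 38 genes, sEH-/- over wild-type (x axis), with points for the edgeR estimate and bars for its standard error, grouped and coloured by class. The dotted lines are the 1.5-fold threshold on either side, which no gene passed, the dashed grey line is the 0.11 of a gene with the same count in all 6 libraries, and *Smpd1* lies farthest below 0 at −0.33.

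Outside these 38 genes, 93 of 102 other genes of the lysosome and its upkeep were tested, in 7 lists. Of these, 1 was called, lower in sEH-/-, where 2.61% of all tested genes were called in either direction. The median log2 fold change of the 93 genes was 0.03, with 56 above and 37 below 0. None of the 17 subunits of the V-ATPase, the pump that acidifies the lysosome, passed an adjusted p of 0.05 with edgeR, nor did any of the 27 other lysosomal enzymes and carriers, of the 8 genes of mannose 6-phosphate sorting, which carries new enzymes to the lysosome, of the 4 tested cathepsin inhibitors or of the 19 autophagy genes. At an unadjusted p below 0.05 edgeR gave 5 of these 75 genes, against the 23.4% of all tested genes, and at an adjusted p below 0.05 limma-voom gave 0 and DESeq2 1, the acid phosphatase gene *Acp2*, which was named after its values were seen. The medians of these lists lay between −0.01 and 0.06 on the log2 scale. Of 5 other cathepsins only *Ctse*, cathepsin E, was in the table and tested, with 10, 14 and 5 counts in the sEH-/- and 2, 3 and 5 in the wild-type libraries. In CPM this was 1.16 to 2.82 and 0.439 to 0.895, without overlap. The log2 fold change was 1.60, from few counts, with an adjusted p of 0.0875 by edgeR.

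The gene called was *Rragd* (ENSMUSG00000028278, chr4:32983037-33022180 in mm10), one of 17 genes of nutrient sensing at the lysosome and of the control of TFEB. It encodes RagD, one of the small GTPases that recruit mTORC1 and TFEB to the lysosomal surface. *Rragd* had 568, 363 and 360 counts in the sEH-/- and 478, 918 and 777 in the wild-type libraries, or 84.5 ± 12 CPM (SD, n = 3) and 131 ± 23.0 CPM (n = 3), without overlap in CPM. Its log2 fold change was −0.63 ± 0.135 (SE), with an adjusted p of 0.0345 by edgeR. The adjusted p ranged from 0.000854 to 0.164 over 16 alternatives, and the gene was called in 10 of them. The call was lost without sEH-/- library 2 or 3, without wild-type library 2 or 3, with the library total in the model, and with the replicate block. In the same list *Tfec*, a relative of *Tfeb* found in macrophages, passed the adjusted p threshold in the other direction, below the fold change threshold, at 0.51 ± 0.110 (SE) and an adjusted p of 0.0345 by edgeR. *Tfec* was named after its values were seen. It had 345, 323 and 241 counts in the sEH-/- and 221, 238 and 221 in the wild-type ones, without overlap. Of the 17 genes in this list, 5 had CPM without overlap and lower in sEH-/-, where 14.5% of all tested genes did. They were *Rragd*, *Fnip1*, *Fnip2*, *Ppp3cb* and *Rraga*. The last 4 had adjusted p between 0.0555 and 0.134 by edgeR and were named after their values were seen. Another 1 of the 17 was higher without overlap, where 11.8% of all tested genes were. Among the 19 autophagy genes, 3 were lower and 2 higher without overlap. The V-ATPase, other enzyme and carrier, sorting, inhibitor and other cathepsin lists had 0 lower, and 1, 2, 1, 0 and 1 higher.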

How the data were processed

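The authors deposited raw counts per gene for 6 libraries, 3 per genotype. By the methods and processing notes, reads were trimmed with Trimmomatic 0.39 and aligned to mm10 with STAR, Picard removed duplicates, mitochondrial, ribosomal and multi-mapping reads were dropped, and exonic reads were counted by strand with featureCounts, leaving out reads over several genes. The methods and the labels differ on the library kit and on most tool versions.

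edgeR 4.0.16 under R 4.3.3 was run on the deposited counts (TMM factors, quasi-likelihood fit and test, no covariates). Genes with a mean above 5 counts were tested, and a gene was called where p after Benjamini-Hochberg adjustment was below 0.05 and the fold change was more than 1.5-fold either way. DESeq2 1.42.0 and limma 3.58.1 (voom) were alternatives, and 16 alternative fits and a test against the fold change threshold (glmTreat) were made in all. Exonic lengths were unions of GENCODE M21 exons (19286 of 19309 genes matched). Counts were corrected for the ceiling as −L ln(1 − c/L), with c the count and L the exonic length. The scripts were tested on simulated data. Between libraries of a genotype, the chi-square per degree of freedom was 2.27 to 4.91, so none was a copy of another.

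The genes, classes and lists were chosen with earlier results of these data known. Values by library are given for genes with an adjusted p below 0.05, the 6 with most counts per exonic base, the 3 highest and 3 lowest in log2 fold change, *Tfeb*, *Tfe3*, the gene with the highest mean CPM of each class, and called genes of the other lists. Values by library of *Ctsd*, *Ctse* and *Tfec* were added after they were seen. Figures were drawn with matplotlib 3.10.9.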

Additional observations from a re-analysis of the deposited data

How the results depend on the processing

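The number of the 38 genes called was 0 with DESeq2, limma-voom, RLE factors, plain library totals, no filter, filterByExpr, the library total in the model, the ceiling correction by exonic length and glmTreat. It was 1 without a fold change threshold (*Smpd1*), 1 with the correction by principal transcript length, chosen after seeing the data (*Ctsc*), and 0 to 1 when a library was left out. The number with an adjusted p below 0.05 at any fold change was 1 with the main test, 2 with DESeq2 (*Ctsc* and *Gaa*), 2 with the principal transcript length and 0 to 2 when a library was left out, being 0 without sEH-/- library 2 and without wild-type library 2 or 3. The number of other lysosome genes called was 1 with the main test, 2 without a fold change threshold, 0 with glmTreat, 0 with the library total in the model and 0 to 2 with a library left out. With the replicate number as a block, 0 genes had an adjusted p below 0.05 and 0 other lysosome genes were called. Deviations of same-numbered libraries from their genotype mean correlated at −0.0818, −0.26 and −0.0367. With 3 libraries per genotype these values cannot decide whether the numbers pair the samples. The median log2 fold change of the 38 genes stayed between 0.02 and 0.18 in all 16 alternatives, its lowest value coming with the library total in the model.

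Signs changed for values near 0. With the library total in the model the log2 fold change was −0.0027 for *Ctss*, −0.0051 for *Hexa*, −0.0087 for *Lgmn* and −0.018 for *Tpp1*. For *Ctss* it was −0.082 with the ceiling corrected by exonic length and −0.076 by principal transcript length. Over the libraries left out in turn it ran from −0.0066 to 0.21 for *Ctss*, −0.0037 to 0.16 for *Hexa*, −0.0084 to 0.18 for *Lgmn*, −0.033 to 0.096 for *Tpp1* and −0.086 to 0.060 for *Tfeb*. The part of all counts held by the 38 genes was 1.25% in sEH-/- and 1.19% in wild-type libraries after the ceiling correction, and without *Ctsb* 0.851% in the wild-type libraries. The cause of these changes was not tested.

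The ceiling, the 1.39-fold span of library totals and 3 libraries per genotype limit the size of a difference that is detectable. Annotated exonic bases not used in these cells lower the counts per exonic base, so that the gap to the ceiling is an upper estimate. The correction by principal transcript length capped 75 library values over all genes.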
